A study of Mus musculus with 8 samples.

Results

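The comparison was the difference between 2 leukemia lines in their response to Cre: MigR1-Cre minus MigR1 in the Lef1F/F line, less the same quantity in the E2a-/- line, on the log2 scale. All 8 arrays of the series entered it, 2 for each of the 4 groups. A response to Cre itself that was alike in both lines cancels in this difference. Functions were described over the 13074 of 45037 probe sets whose mean intensity was over 180 units in each line, a level well above background. Of these, 11904 carried 1 gene name, for 7411 genes. A further 805 probe sets were over 180 units in the E2a-/- line alone, 786 in the Lef1F/F line alone and 30372 in neither.

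Both lines were T cell leukemias of FVB/NJ mice that lack E2a, which encodes the E proteins E12 and E47. The E2a-/- line had unmodified Lef1. The Lef1F/F line had genotype E2a-/-Lef1F/F, that is, loxP sites on both sides of the Lef1 sequence for the DNA binding domain. Each line was infected with MigR1, a retrovirus that makes GFP, or with MigR1-Cre, which makes GFP and the recombinase Cre, and GFP+ cells were harvested 72 h later. With 1 line of each genotype, the effects of genotype and of line cannot be told apart, and nothing in the labels says that the 2 arrays of a group came from separate cultures, so that p-values measure the spread between arrays. Groups followed the sample titles. A retrovirus field of the labels names MigR1 for the E2a-/- MigR1-Cre arrays and MigR1-Cre for the Lef1F/F MigR1 arrays, against their titles.

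LEF1 belongs to the TCF/LEF family of DNA binding proteins, which bind short T-rich sites, serve as the nuclear arm of Wnt signaling together with beta-catenin, and act in the early development of T cells in the thymus. Many of the genes it is known to bind in thymocytes encode T cell receptor components, signaling proteins and surface receptors. Cre cuts and joins DNA at loxP sites, and can also cut at related sites in a genome that has none, so that a line with unmodified Lef1 serves as the control for Cre.

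Median intensities were 88.9 to 91.0 units in the 8 arrays. Of 11 T cell identity markers 9 were over 180 units in both lines, with Cd3d at a mean of 7976 units in the E2a-/- line and 10191 in the Lef1F/F line, while Cd5 was at 70.8 and 81.0. None of 19 myeloid markers reached that level, and their summed intensity was 1471 to 1521 units in the E2a-/- arrays and 1536 to 1565 in the Lef1F/F arrays. Of 16 B cell markers 4 were over 180 units in both lines. Cd79a, Ms4a1 and Pax5 lay between 66.6 and 100.2 units on average in both lines, although Ighm was at 1729.6 units in the E2a-/- line and 389.5 in the Lef1F/F line. Natural killer and innate lymphoid markers summed to 10411 and 9795 units in the Lef1F/F MigR1 arrays and 12141 and 11398 in the Lef1F/F MigR1-Cre arrays. They summed to 7642 to 8102 units in the E2a-/- arrays. Stromal and endothelial markers summed to 5458 to 5722 units in the E2a-/- arrays and 1669 to 1770 in the Lef1F/F arrays. Tcf3, the mouse symbol of E2a, gave a mean of 828 units in the E2a-/- line and 704 in the Lef1F/F line at its brightest probe set, whose place relative to the deleted part was not looked up here. In bulk RNA of this kind, fewer cells that express a gene and less RNA of it per cell cannot be told apart.

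Lef1 was the gene with the largest difference, and in Lef1F/F cells it was lower with MigR1-Cre than with MigR1. Its brighter probe set gave 3288 and 3337 units in the E2a-/- MigR1 arrays, 3008 and 3416 in the E2a-/- MigR1-Cre arrays, 6918 and 6126 in the Lef1F/F MigR1 arrays and 1903 and 1678 in the Lef1F/F MigR1-Cre arrays. The Lef1F/F MigR1-Cre arrays were the lowest of the 8, and the E2a-/- arrays overlapped between vectors. The difference was -1.82 ± 0.13 (SE, adjusted p = 0.0184 without the block and 1.55e-05 with it). A dimmer Lef1 probe set gave 610.4 and 753 units in the E2a-/- MigR1 arrays, 605 and 628 in the E2a-/- MigR1-Cre arrays, 1485 and 1262 in the Lef1F/F MigR1 arrays and 236 and 237 in the Lef1F/F MigR1-Cre arrays, with a difference of -2.40 ± 0.16 (SE, adjusted p = 0.0149 without the block and 1.55e-05 with it). The place of these probe sets relative to the loxP sites was not looked up here, so they show the level of the measured part of the transcript and not the deletion itself.

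The Lef1F/F arrays of the same title order moved together. Deviations from the group means correlated at 0.696 between the first MigR1 and the first MigR1-Cre array and likewise between the second ones, against -0.029 for title order in the E2a-/- line. Over the bright probe sets, replicate arrays differed with an SD of 0.24 on the log2 scale in each Lef1F/F group, but the Cre effects of the 2 pairs differed with an SD of 0.13 only. The labels do not say that title order marks a shared culture or day, so each difference was fitted with limma without a block and again with the Lef1F/F arrays blocked by title order, which lowered the median SE over bright probe sets from 0.119 to 0.0932. Without the block 9 of all probe sets passed (0.02%), 8 lower and 1 higher, and 4 of the bright ones (0.0306%), while 1453 of all and 512 of the bright ones had an unadjusted p under 0.05. After the arrays were shifted to a common median, 6 passed, 6 lower and 0 higher.

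With the block 86 probe sets passed (0.191%), among them all 9. Of the bright probe sets 32 were lower (0.245%) and 13 higher (0.0994%), which were 25 lower and 11 higher named genes and 5 probe sets without a gene name here. Leaving out 1 E2a-/- array at a time gave 21 to 43 bright calls, and 21 without the second E2a-/- MigR1 array. In all 4 of those fits 19 of the 45 passed: both Lef1 probe sets, Cym, Fabp4, Hemgn, Prmt7, Mecom, Mroh1, Ptpn22, Rasgrp1, Ripor2, Sgk1, Ifi202b, Cdkn1a, Fbln2, Rab44, Spib and 2 unnamed probe sets. Agfg1, Wdr25 and the dimmer Mbnl2 probe set passed in none of the 4. Brightness was judged on the mean of a line, so that a gene could reach it through 1 vector: 6 of the 45 had a group mean that was not over 180 units, namely Fabp4 and 2 unnamed probe sets in Lef1F/F MigR1-Cre (1 of these also in E2a-/- MigR1), Spib and Fbln2 in Lef1F/F MigR1 and the dimmer Mbnl2 probe set in E2a-/- MigR1-Cre. With all 4 group means over 180 units, as 12841 probe sets had, 28 lower and 11 higher calls were left.

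**Figure D1:**
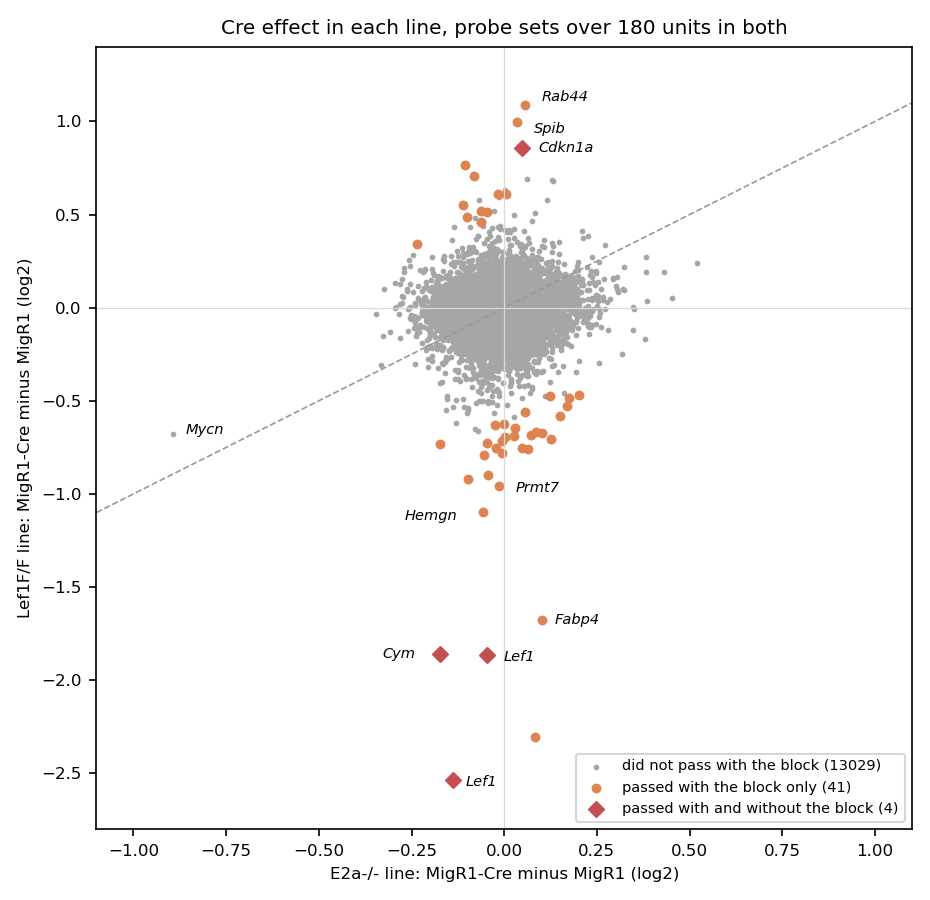
Cre effect (MigR1-Cre minus MigR1, log2) in the E2a-/- line (x axis) and in Lef1F/F cells (y axis) for the 13074 probe sets over 180 units in both lines, where the dashed line marks equal effects. Orange points passed the difference with the block only and red diamonds with and without it. The 45 that passed spread from top to bottom within a narrow band of E2a-/- effects, -0.24 to 0.20, and Mycn lies apart on the left near the dashed line.

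The plot of both effects shows where the 45 bright probe sets that passed lay. The median size of their effect was 0.70 in the Lef1F/F line and 0.06 in the E2a-/- line, against 0.06 and 0.05 over all bright probe sets. All 45 also passed as a Cre effect within the Lef1F/F line with the block, where 197 bright probe sets did (1.51%), and 0 did within the E2a-/- line. The MigR1 and MigR1-Cre arrays did not overlap in the Lef1F/F line for 42 of the 45, beside 25% of all bright probe sets. The other 3 were Ywhaz and 2 unnamed probe sets. The 45 were chosen by the difference between these effects in the same arrays. Their large effects, calls and lack of overlap in the Lef1F/F line thus largely follow from the choice and are no separate result. The sign of the E2a-/- effect was opposite to that of the Lef1F/F effect in 26 of 45. Choosing by the difference favors opposite signs, and the share over all bright probe sets was not counted. With E2a-/- effects this small the signs are no sign of opposed responses. A difference over 2-fold was reached by 7 of the 45, and by 7 of all bright probe sets.

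T cell receptor signaling relays antigen binding through the kinases Lck, Zap70 and Syk to the Ras, calcium and NF-kB pathways. Of 30 measured genes of this list 3 were lower at their brightest probe set and 0 higher, beside 0.258% lower and 0.0605% higher over 18193 genes, and the median difference of the list was 0.0058 beside -0.0032 over all genes. This and every list below were chosen with earlier results of these data known. The share of a list that was called is therefore a description and no evidence that its function was enriched. Rasgrp1, which activates Ras downstream of the receptor, was called lower. It gave 483 and 461 units in the E2a-/- MigR1 arrays, 467 and 442 in the E2a-/- MigR1-Cre arrays, 1186 and 1187 in the Lef1F/F MigR1 arrays and 662 and 711 in the Lef1F/F MigR1-Cre arrays. The Lef1F/F arrays did not overlap between vectors, all E2a-/- arrays were below every Lef1F/F array, and the difference was -0.74 ± 0.09 (SE, adjusted p = 0.0991 without the block and 0.00574 with it). The other 3 Rasgrp1 probe sets were at most 124.5 units in the 8 arrays and gave differences of -0.35, -0.20 and -0.08, none of which passed.

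Ptpn22, a phosphatase that dampens receptor signaling, had 363 and 375 units in the E2a-/- MigR1 arrays, 403 and 388 in the E2a-/- MigR1-Cre arrays, 738 and 671 in the Lef1F/F MigR1 arrays and 458 and 424 in the Lef1F/F MigR1-Cre arrays. Its effects in the 2 Lef1F/F pairs were -0.69 and -0.66 on the log2 scale, and the E2a-/- arrays lay slightly higher with Cre without overlap. The difference was -0.78 ± 0.10 (SE, adjusted p = 0.117 without the block and 0.00252 with it). Syk, a kinase of early thymocytes and B cells, was over 180 units in the Lef1F/F line alone. Its brightest probe set gave 80.8 and 86.6 units in the E2a-/- MigR1 arrays, 73.8 and 72.9 in the E2a-/- MigR1-Cre arrays, 344 and 321 in the Lef1F/F MigR1 arrays and 129 and 128 in the Lef1F/F MigR1-Cre arrays. Syk differed by -1.18 ± 0.09 (SE, adjusted p = 0.0184 without the block and 0.000228 with it), and a dimmer probe set by -1.14 ± 0.10 (SE, adjusted p = 0.0235 without the block and 0.000458 with it). A further pair of Syk probe sets near background gave -0.39 and 0.0031 and did not pass. Of the 37 Ras and ERK pathway genes, Rasgrp1 and Egr1 were called, both lower. Egr1, an immediate early transcription factor, was dim at 267 and 239 units with MigR1 and 150.1 and 164 with MigR1-Cre in the Lef1F/F line, against 112 to 116 over the E2a-/- arrays, and differed by -0.67 (adjusted p = 0.0239 with the block).

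Costimulatory and checkpoint receptors set how a T cell answers to its antigen receptor. Of 23 measured genes of this list 5 were lower and 0 higher, with a median difference of -0.05, and 9 of the 23 were bright. The 5 included the surface glycoprotein Cd52 and the tetraspanin Cd53 beside receptors of this kind. Ctla4, an inhibitory receptor, was bright in both lines, with the Lef1F/F line far higher. It gave 299 and 261 units in the E2a-/- MigR1 arrays, 303 and 243 in the E2a-/- MigR1-Cre arrays, 2124 and 1745 in the Lef1F/F MigR1 arrays and 1103 and 967 in the Lef1F/F MigR1-Cre arrays. The effects in the Lef1F/F line were -0.95 and -0.85 in the 2 pairs, and the difference of -0.85 ± 0.19 (SE, adjusted p = 0.851 without the block and 0.0336 with it) did not pass when the second E2a-/- MigR1 array (adjusted p = 0.13) or the first E2a-/- MigR1-Cre array (adjusted p = 0.0633) was left out. Cd160, an immunoglobulin-like receptor of T and NK cells, gave 216 and 216 units in the E2a-/- MigR1 arrays, 218 and 254 in the E2a-/- MigR1-Cre arrays, 320.3 and 271 in the Lef1F/F MigR1 arrays and 173 and 189.6 in the Lef1F/F MigR1-Cre arrays. It differed by -0.83 ± 0.15 (SE, adjusted p = 0.343 without the block and 0.0285 with it), and passed in 1 of the 4 fits without an E2a-/- array. A second bright Cd160 probe set at -0.61 (adjusted p = 0.0534 with the block) did not pass, nor did those near background, at -0.17 and -0.24. Cd52, Cd53 and Icos did not reach 180 units in the E2a-/- line. Cd52, a surface glycoprotein, had 411 and 355 units with MigR1 and 189.8 and 173 with MigR1-Cre in the Lef1F/F line, against 155 to 175 over the E2a-/- arrays, and a difference of -1.01 (adjusted p = 0.00113 with the block). The tetraspanin Cd53 differed by -0.64 (adjusted p = 0.0103 with the block) and the costimulator Icos by -0.57 (adjusted p = 0.0189 with the block).

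**Figure D2:**
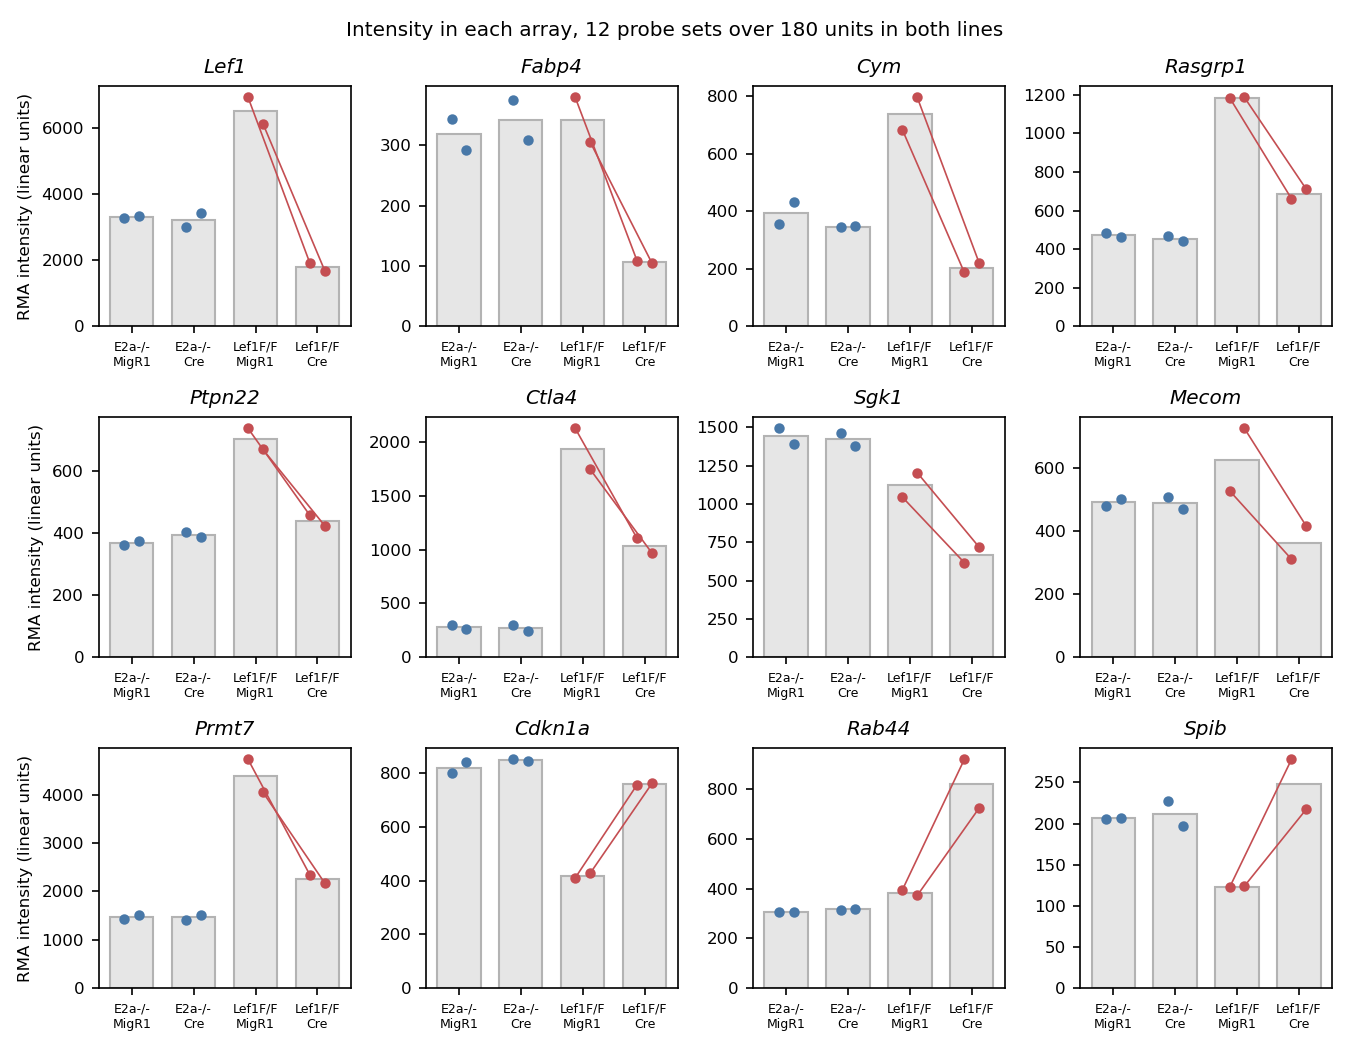
RMA intensity (linear units, y axis from 0) in each of the 8 arrays for 12 probe sets over 180 units in both lines, where points are arrays, bars are group means, blue is the E2a-/- line and red the Lef1F/F line, and red lines join arrays of the same title order. In the Lef1F/F line 9 of the 12 genes fall and Cdkn1a, Rab44 and Spib rise, while the blue points of MigR1 and MigR1-Cre lie close together.

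Sgk1 encodes a kinase that phosphorylates Foxo factors and acts on ion channels and cell survival. It gave 1494 and 1394 units in the E2a-/- MigR1 arrays, 1463 and 1381 in the E2a-/- MigR1-Cre arrays, 1045 and 1205 in the Lef1F/F MigR1 arrays and 618 and 719 in the Lef1F/F MigR1-Cre arrays. Here the E2a-/- arrays were the higher ones, and within the Lef1F/F line both MigR1-Cre arrays lay below both MigR1 arrays, with effects of -0.76 and -0.74 in the 2 pairs against -0.02 in the E2a-/- line. The difference was -0.73 ± 0.14 (SE, adjusted p = 0.456 without the block and 0.0064 with it). Sgk1 was the only call in the list of 26 homing receptor, chemokine receptor and integrin genes. Since Sgk1 encodes a kinase, no receptor or integrin of that list was called. Ripor2, an inhibitor of RhoA in T cells, had 264 and 258 units in the E2a-/- MigR1 arrays, 269 and 284 in the E2a-/- MigR1-Cre arrays, 697 and 715 in the Lef1F/F MigR1 arrays and 429 and 462 in the Lef1F/F MigR1-Cre arrays. The lines stood apart, the Lef1F/F groups did not overlap, and the difference was -0.75 ± 0.09 (SE, adjusted p = 0.0991 without the block and 0.00382 with it).

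Promoters of the genes named among the largest differences were searched for the TCF/LEF core CTTTGA, like every motif on both strands, in RefSeq windows of assembly GRCm38.p6 from 250 bases before to 50 bases after a start. Of 19 such lower genes 14 had an entry, with 28 promoters, of which 8 held the core, in Cd160, Ctla4, Lef1, Mecom, Ripor2, Sgk1 and Syk. Of 11 higher genes 8 had an entry, with 9 promoters, and 1 held it, in Fbln2. Over 32851 promoters the share was 16%. The longer form CTTTGAT, which contains the core, was in 3 of the 28 and 0 of the 9, beside 3.73% of all. The E box CAGGTG, which E proteins bind, was in 9 of 28 and 3 of 9 beside 20.2%, and the Myc site CACGTG in 2 of 28 and 0 of 9 beside 7.15%. These shares carry no test, since several promoters belong to 1 gene. The 3 promoters with the longer form are printed 5′ to 3′ in the direction of the gene, with the core or its reverse complement in capitals:
Ctla4, chr1:60908775-60909074, plus strand: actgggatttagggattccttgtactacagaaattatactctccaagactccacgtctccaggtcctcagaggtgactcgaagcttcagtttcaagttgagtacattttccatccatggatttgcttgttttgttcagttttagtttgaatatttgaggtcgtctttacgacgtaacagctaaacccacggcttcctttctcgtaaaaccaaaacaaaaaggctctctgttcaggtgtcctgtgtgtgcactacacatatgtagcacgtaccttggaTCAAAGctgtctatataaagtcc
Mecom, chr3:30509710-30510009, minus strand: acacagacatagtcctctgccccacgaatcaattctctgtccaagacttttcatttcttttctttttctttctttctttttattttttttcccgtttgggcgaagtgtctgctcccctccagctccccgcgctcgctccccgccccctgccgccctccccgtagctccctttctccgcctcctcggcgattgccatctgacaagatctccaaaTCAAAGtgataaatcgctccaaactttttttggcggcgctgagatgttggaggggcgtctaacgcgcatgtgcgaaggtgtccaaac
Sgk1, chr10:21978422-21978721, plus strand: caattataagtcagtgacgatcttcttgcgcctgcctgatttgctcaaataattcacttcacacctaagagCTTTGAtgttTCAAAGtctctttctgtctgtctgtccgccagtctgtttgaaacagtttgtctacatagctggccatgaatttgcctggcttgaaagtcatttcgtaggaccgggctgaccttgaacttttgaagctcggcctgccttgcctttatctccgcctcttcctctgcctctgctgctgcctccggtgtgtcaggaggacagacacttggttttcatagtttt
The core lies 27 bases after the start in Ctla4, 37 bases before it in Mecom and first at 179 bases before it in Sgk1. A match in letters is not a binding site.

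After Lef1, the bright named genes with the largest falls were Fabp4 and Cym, and an unnamed probe set differed by -2.39 (adjusted p = 0.000212 with the block). Fabp4, a fatty acid binding protein, gave 344 and 292 units in the E2a-/- MigR1 arrays, 375 and 309 in the E2a-/- MigR1-Cre arrays, 379 and 306 in the Lef1F/F MigR1 arrays and 108 and 105 in the Lef1F/F MigR1-Cre arrays. Its Lef1F/F MigR1-Cre arrays were near the array medians and below every other array, and the 4 E2a-/- arrays overlapped. The difference was -1.78 ± 0.19 (SE, adjusted p = 0.0567 without the block and 0.000374 with it). A dimmer Fabp4 probe set differed by -1.45 (adjusted p = 0.0236 with the block), and the remaining Fabp4 probe sets by -0.35 and -0.0047, which did not pass. Cym, the gene of the milk-clotting protease chymosin, had 354 and 431 units in the E2a-/- MigR1 arrays, 344 and 349.5 in the E2a-/- MigR1-Cre arrays, 682 and 795 in the Lef1F/F MigR1 arrays and 187 and 220.1 in the Lef1F/F MigR1-Cre arrays. It was the lowest in the Lef1F/F MigR1-Cre arrays, and the E2a-/- MigR1-Cre arrays also lay below the E2a-/- MigR1 arrays, with an effect of -0.17. The difference was -1.69 ± 0.17 (SE, adjusted p = 0.0476 without the block and 0.000143 with it). Plpp1, a phosphatase of phosphatidic acid, passed at both of its bright probe sets, with differences of -0.80 (adjusted p = 0.0156 with the block) and -0.68 (adjusted p = 0.033 with the block), while a Plpp1 probe set near background, at 57.8 to 67 units in the 8 arrays, gave -0.17 and did not pass. Plpp1 was the other call among 26 lipid binding and oxidation genes, whose median was -0.02, and 0 of 25 cholesterol and fatty acid synthesis genes were called (median -0.06).

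Mecom, a zinc finger transcription factor and leukemia oncogene, gave 481 and 502 units in the E2a-/- MigR1 arrays, 509 and 471 in the E2a-/- MigR1-Cre arrays, 528 and 726 in the Lef1F/F MigR1 arrays and 312 and 416 in the Lef1F/F MigR1-Cre arrays. The Lef1F/F arrays were far apart within each vector, but the effects in the pairs were -0.76 and -0.80, and the difference was -0.78 ± 0.24 (SE, adjusted p = 1 without the block and 0.00382 with it). Hemgn, a nuclear protein of blood cell precursors, had 411 and 431 units in the E2a-/- MigR1 arrays, 429.7 and 381 in the E2a-/- MigR1-Cre arrays, 459 and 584 in the Lef1F/F MigR1 arrays and 233 and 252 in the Lef1F/F MigR1-Cre arrays, and a difference of -1.04 ± 0.16 (SE, adjusted p = 0.252 without the block and 0.00186 with it). Prmt7, an arginine methyltransferase, was among the brightest genes called. It gave 1432 and 1520.1 units in the E2a-/- MigR1 arrays, 1408 and 1518 in the E2a-/- MigR1-Cre arrays, 4726 and 4047 in the Lef1F/F MigR1 arrays and 2338 and 2171 in the Lef1F/F MigR1-Cre arrays. In the Lef1F/F line Prmt7 fell without overlap between vectors, to levels that remained above the E2a-/- arrays, and the difference was -0.94 ± 0.13 (SE, adjusted p = 0.124 without the block and 0.00144 with it).

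Of the lower genes with smaller differences, Mroh1 had 641 and 512 units with MigR1 and 379 and 303 with MigR1-Cre in the Lef1F/F line, against 628 to 679.5 over the E2a-/- arrays, and differed by -0.82 (adjusted p = 0.00176 with the block). Wdr25 differed by -0.76 (adjusted p = 0.021 with the block), with pair effects of -0.87 and -0.50. The remaining lower genes lay between -0.71 and -0.60 at their brightest called probe set. They were Stc1, a secreted glycoprotein hormone, Ifi202b, a p200 family protein, the splicing factor Mbnl2, the lysosomal membrane protein Lamp2, the chromodomain protein Cdyl2, Cyba, a subunit of the NADPH oxidase, Agfg1, Efr3b, Necab1 and Gadd45a. Ifi202b had 4627 and 3955 units with MigR1 and 2674 and 2614 with MigR1-Cre in the Lef1F/F line, against 501 to 509 over the E2a-/- arrays, and a difference of -0.70 (adjusted p = 0.0103 with the block). Lamp2 was called at 1 of 4 bright probe sets, and the other 3 differed by -0.34 to -0.59. The brightest Agfg1 probe set was not called, at -0.32 (limma adjusted p = 0.739 with the block), nor were further bright ones at -0.39 and -0.30. A bright Mbnl2 probe set at -0.49 (limma adjusted p = 0.183 with the block) did not pass.

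Rab44, a large Rab GTPase, was the bright gene with the largest rise. It gave 304 and 306 units in the E2a-/- MigR1 arrays, 316 and 318 in the E2a-/- MigR1-Cre arrays, 395 and 373 in the Lef1F/F MigR1 arrays and 918 and 723 in the Lef1F/F MigR1-Cre arrays. The Lef1F/F MigR1-Cre arrays were above every other array, and the E2a-/- arrays also lay higher with Cre, by 0.06. The difference was 1.03 ± 0.15 (SE, adjusted p = 0.158 without the block and 0.00113 with it). Spib, an Ets transcription factor of B cells and plasmacytoid dendritic cells, had 205 and 207 units in the E2a-/- MigR1 arrays, 227 and 197 in the E2a-/- MigR1-Cre arrays, 123 and 124 in the Lef1F/F MigR1 arrays and 278 and 217 in the Lef1F/F MigR1-Cre arrays. The Lef1F/F arrays rose to the level of the E2a-/- arrays, and the difference was 0.96 ± 0.16 (SE, adjusted p = 0.308 without the block and 0.0103 with it). Spib counted as bright in the Lef1F/F line through its MigR1-Cre arrays alone, so that its place among the bright genes is no separate result. It was the member called of 16 B cell genes, whose median difference was 0.07, and Mzb1 at 0.55 (adjusted p = 0.0539 with the block) did not pass. The summed intensity of that list, which includes Spib itself, was 1882 and 1930.2 units in the Lef1F/F MigR1 arrays and 2312 and 2248 in the MigR1-Cre arrays. In the E2a-/- line it was 3606 and 3246 units with MigR1 and 3941 and 3046 with MigR1-Cre. The part of other cells in the change of Spib was not tested.

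Cdkn1a encodes p21, an inhibitor of cyclin-dependent kinases, and was the only probe set higher without the block. It gave 799 and 839 units in the E2a-/- MigR1 arrays, 849.8 and 844 in the E2a-/- MigR1-Cre arrays, 410.3 and 427 in the Lef1F/F MigR1 arrays and 756 and 761 in the Lef1F/F MigR1-Cre arrays. The Lef1F/F MigR1 arrays were the lowest of the 8, the level rose by 0.88 and 0.83 in the pairs, and the E2a-/- arrays with Cre were higher without overlap, by 0.05. The difference was 0.81 ± 0.08 (SE, adjusted p = 0.0476 without the block and 0.00186 with it). The brighter Cdkn1a probe set gave 1159.9 and 1154 units in the E2a-/- MigR1 arrays, 1345 and 1188 in the E2a-/- MigR1-Cre arrays, 570.2 and 749 in the Lef1F/F MigR1 arrays and 1152 and 958 in the Lef1F/F MigR1-Cre arrays, and its difference of 0.56 ± 0.19 (SE, adjusted p = 1 without the block and 0.527 with it) did not pass. Of 29 p53 targets Gadd45a alone was called at its brightest probe set, and lower, at -0.60 (adjusted p = 0.0416 with the block). The other genes of the list had differences of -0.40 to 0.56, and the list's median was -0.05. None of 22 cell cycle inhibitors, G1 cyclins and Rb family genes, 29 S phase genes and 29 mitosis genes was called at the brightest probe set. All 29 S phase genes were bright, with differences of -0.14 (Pole) to 0.20 (Rfc3) and a median of 0.02. The mitosis genes ranged from -0.31 (Cdc25b) to 0.12 (Kif23), with a median of -0.06, and 20 of 29 were below 0. The share of all genes below 0 was not counted. Their median Cre effect was 0.06 in the Lef1F/F line and 0.12 in the E2a-/- line, so the median did not fall in the Lef1F/F line. They summed to 55793 units in the second E2a-/- MigR1-Cre array, against 44965 in the first and 44767 and 47872 in the E2a-/- MigR1 arrays.

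Among the other bright higher genes, Fbln2, a protein of the extracellular matrix, had 320.4 and 320.3 units in the E2a-/- MigR1 arrays, 316 and 281 in the E2a-/- MigR1-Cre arrays, 152 and 167 in the Lef1F/F MigR1 arrays and 273 and 269.8 in the Lef1F/F MigR1-Cre arrays. Its Lef1F/F arrays did not overlap, and those with MigR1 were below 180 units, so that Fbln2, like Spib, was bright in that line through its MigR1-Cre arrays. The difference was 0.87 ± 0.11 (SE, adjusted p = 0.0991 without the block and 0.00382 with it). Pcmtd1 passed at 2 probe sets, with 0.79 (adjusted p = 0.0103 with the block) at the brighter, and 3 other bright probe sets gave 0.40 to 0.63 without passing. Tenm1, a teneurin of the cell surface, had 759 and 904 units with MigR1 and 1173 and 1368 with MigR1-Cre in the Lef1F/F line, against 1043 to 1068 over the E2a-/- arrays, and differed by 0.63 (adjusted p = 0.0103 with the block). Its other probe set gave 0.65 and did not pass. Ldlrad3 differed by 0.66 (adjusted p = 0.033 with the block), Ypel2 by 0.61 (adjusted p = 0.0414 with the block), Ramp1, a partner of calcitonin family receptors, by 0.58 (adjusted p = 0.0224 with the block), and Ccdc153 by 0.56 (adjusted p = 0.0354 with the block). The call of Ywhaz, the 14-3-3 zeta adaptor, rested on 1 of 7 bright probe sets at 0.58 (adjusted p = 0.031 with the block), and the other 6 gave -0.06 to 0.29.

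**Figure D3:**
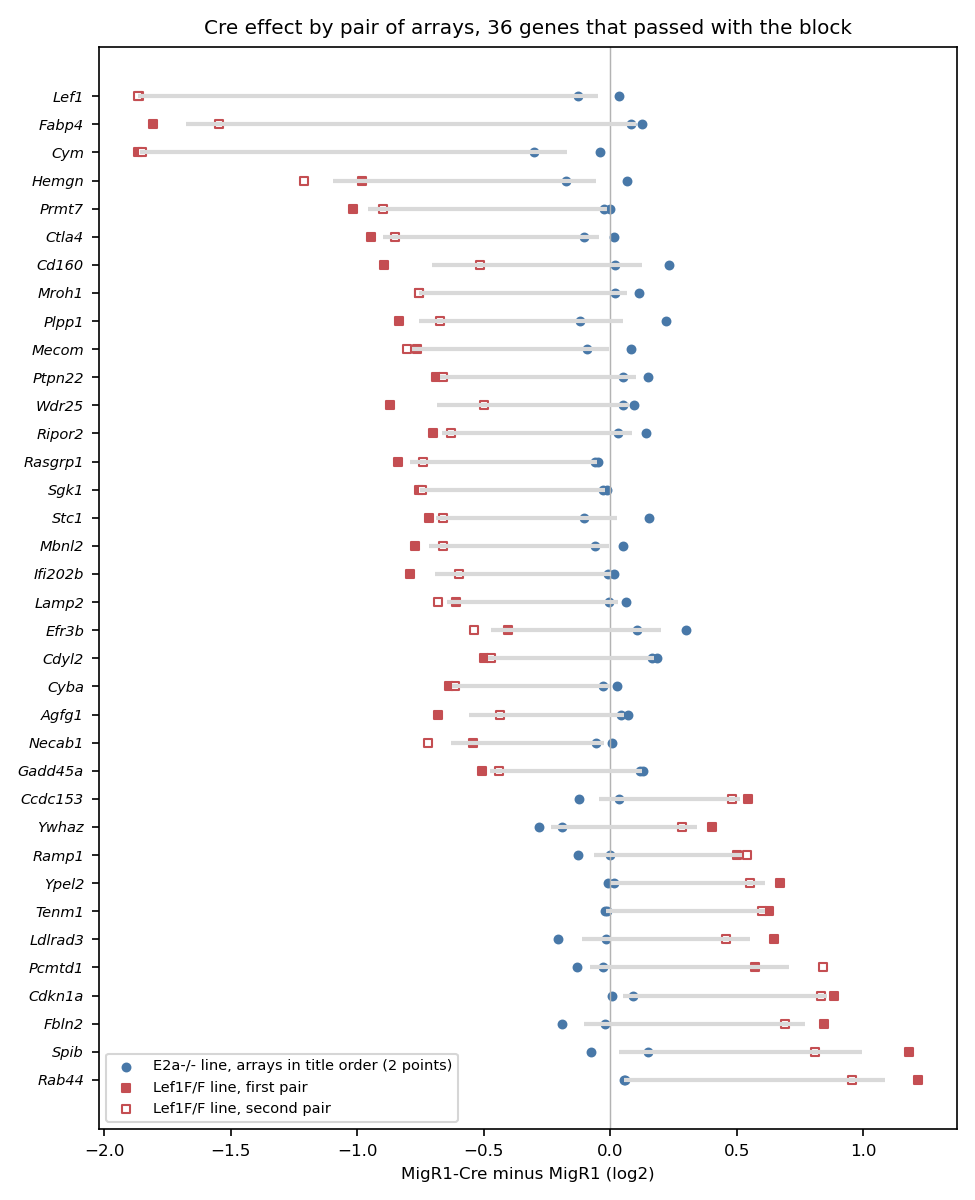
Cre effect (MigR1-Cre minus MigR1, log2, x axis) in each pair of arrays for the 36 named bright genes that passed with the block, at the brightest called probe set, ordered by the difference between the lines. Red squares are the first (filled) and the second (open) Lef1F/F pair and blue points the E2a-/- arrays in title order. In all 36 genes both squares lie on the same side of 0, which the choice of genes by the blocked fit favors.

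All 45 bright calls had the same direction in both Lef1F/F pairs, as 8133 of all 13074 bright probe sets did. The blocked fit that called the 45 uses these pairs and favors those that agree, so this agreement is no separate replication. The plot of effects by pair shows the widest gaps between pairs for Cd160, at -0.89 and -0.51, Spib, at 1.18 and 0.81, and Wdr25. Where a called gene had more than 1 probe set, as 23 did, all lay on 1 side of 0 in 18. Just inside the line of 180 units were the unnamed probe set with a difference of -2.39, at a mean of 181 units in the E2a-/- line, Spib, at a mean of 186 units in the Lef1F/F line, and the dimmer called Mbnl2 probe set, at 189 in the E2a-/- line. Just outside were Cd52, at 168 units, and Mt2, at 173, both in the E2a-/- line, and an unnamed probe set with a difference of 0.72, at 176 in the Lef1F/F line.

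A further 41 probe sets that passed with the block were not over 180 units in both lines, 37 lower and 4 higher. Of these 23 reached that level in the Lef1F/F line alone, 3 in the E2a-/- line alone and 15 in neither. The fitted difference compares a change in the Lef1F/F line with values near background in the E2a-/- line for the 23. Id3, an inhibitor of E proteins, had 726 and 605 units with MigR1 and 281 and 282 with MigR1-Cre in the Lef1F/F line, against 71.1 to 82.1 over the E2a-/- arrays, and a difference of -1.15 ± 0.14 (SE, adjusted p = 0.0947 without the block and 0.00127 with it). Id1 differed by -0.59 (adjusted p = 0.0189 with the block), which made 2 of 15 E protein and Id genes lower, and Tcf12, the brightest E protein gene, differed by 0.08 and did not pass. In the E2a-/- line alone, Rora, a nuclear receptor of innate lymphoid cells, was over 180 units, and differed by -0.81 (adjusted p = 0.00382 with the block).

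Of 32 junction, matrix and adhesion genes 4 were lower and 2 higher, and Fbln2 was the only one called that was over 180 units on average in both lines, which in the Lef1F/F line rested on its MigR1-Cre arrays. Lamb1, a laminin chain, had 287 and 267 units with MigR1 and 159 and 159 with MigR1-Cre in the Lef1F/F line, against 92.5 to 118 over the E2a-/- arrays, and differed by -1.03 ± 0.10 (SE, adjusted p = 0.0476 without the block and 0.00113 with it). Gja1, the gap junction protein connexin 43, had 1392 and 1437 units with MigR1 and 905 and 877 with MigR1-Cre in the Lef1F/F line, against 148 to 180.5 over the E2a-/- arrays, and differed by -0.89 ± 0.09 (SE, adjusted p = 0.0461 without the block and 0.00137 with it). The adhesion genes Cadm4 and Cntnap2 differed by -0.90 and -0.81. Dsp, the desmosome protein desmoplakin, had 1206 and 1151 units with MigR1 and 2098 and 2114 with MigR1-Cre in the Lef1F/F line, against 53.4 to 58.6 over the E2a-/- arrays, and differed by 0.81 (adjusted p = 0.00382 with the block). The metal binding protein gene Mt2 was higher by 0.65 (adjusted p = 0.0106 with the block), and the glutathione transferase gene Gstm2 lower, at -1.11 (adjusted p = 0.000761 with the block), of 30 metallothionein and glutathione genes. The gene 2810459M11Rik, which passed without the block, had 637 and 642 units with MigR1 and 270.5 and 271 with MigR1-Cre in the Lef1F/F line, against 105 to 126 over the E2a-/- arrays, and differed by -1.34 ± 0.11 (SE, adjusted p = 0.0235 without the block and 0.000374 with it).

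Of the Wnt target list, Tnfrsf19 alone of 24 was called, at -0.87 (adjusted p = 0.0103 with the block), and was dim in the E2a-/- line. This count covers the listed genes only. Ccn4, which was not in the list, was called lower at -0.98 (limma adjusted p = 0.00857 with the block). It was dim, with means of 138 units in the E2a-/- line and 102 in the Lef1F/F line. Lef1 alone of 15 TCF/LEF factors and partners was called. Over all 34 lists 734 genes were measured, 404 of them bright, and at the brightest probe set 24 were lower and 4 higher with the block, against 4 lower and 0 higher without it. Cdkn1a, called at its dimmer probe set, belongs to the p53 and cell cycle lists. None was called at the brightest probe set in the cholesterol, cell cycle, S phase, mitosis, Myc network, Notch, thymocyte stage or Bcl2 family lists. Nor was any in the cytokine receptor, glycolysis, interferon, antigen presentation, unfolded protein, heat shock or ribosome biogenesis lists. The same held for the T-ALL gene, myeloid, stromal and T cell identity lists and the list of p200, Ly6 and Gimap families. The nearest were Ptcra, the pre-T cell receptor alpha chain, at 0.56 (adjusted p = 0.0534 with the block) with 1886 and 1608 units with MigR1 and 2522 and 2351 with MigR1-Cre in the Lef1F/F line, against 2103 to 2352 over the E2a-/- arrays, and Rtp4, an interferon-induced gene, at -0.49 (adjusted p = 0.0636 with the block). Medians of these lists without a call lay between -0.06 and 0.04. The p200 family gene Ifi202b, called lower above, was a measured member of neither the p200 list nor the interferon list.

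**Figure D4:**
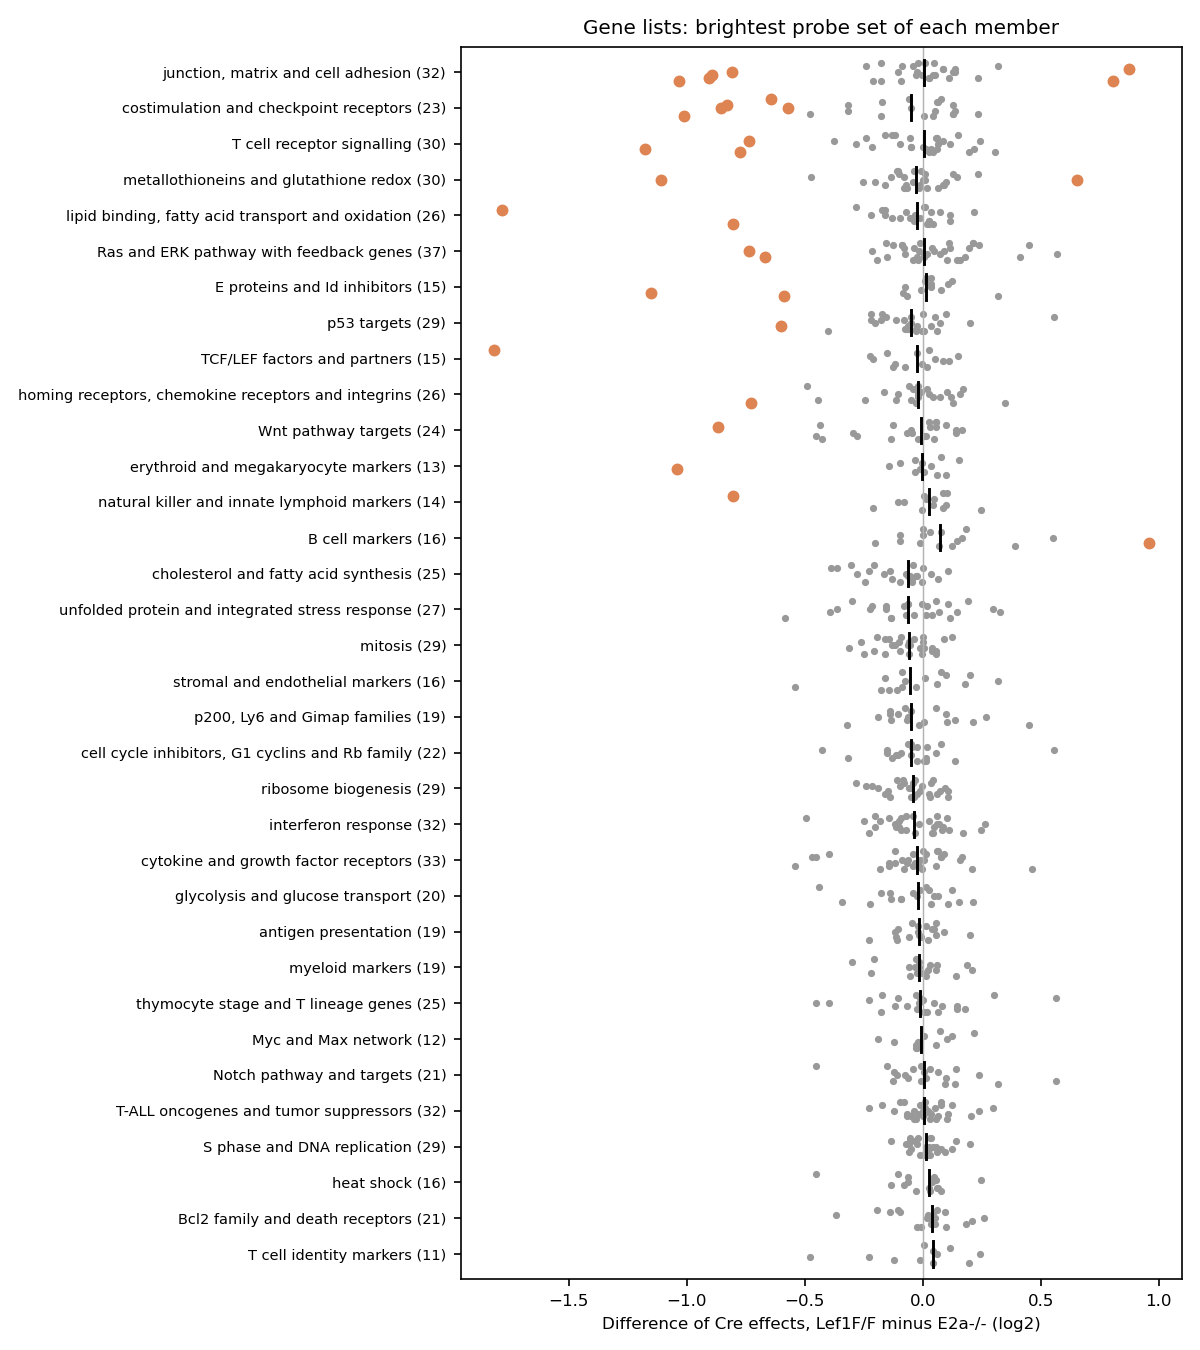
Difference of Cre effects, Lef1F/F minus E2a-/- (log2, x axis), at the brightest probe set of each measured member of 34 gene lists (number measured in brackets). Orange points passed with the block, grey points did not, and black bars are list medians, which lie between -0.06 and 0.07 in the 34 lists while single members reach -1.82 (Lef1) and 0.96 (Spib).

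Mycn, a Myc family transcription factor, showed what the difference leaves out. It gave 12653 and 11713 units in the E2a-/- MigR1 arrays, 6470.4 and 6639.7 in the E2a-/- MigR1-Cre arrays, 11049 and 9317 in the Lef1F/F MigR1 arrays and 7353 and 5481 in the Lef1F/F MigR1-Cre arrays. The arrays did not overlap between vectors in either line. For Lef1F/F cells the Cre effect on Mycn was -0.68 (limma, adjusted p = 0.238 without the block and 0.000522 with it). For E2a-/- cells it was -0.89 (limma, adjusted p = 0.00121 with the block), and Mycn was the 1 probe set that passed there with the block. Without the block, Mycn passed in neither line, so both calls rest on the blocked fit. The difference was 0.22 ± 0.19 (SE, adjusted p = 1 without the block and 0.808 with it). Myc itself differed by 0.0037 and did not pass. Of the 13074 bright probe sets 3263 did not overlap between vectors in the Lef1F/F line and 4062 in the E2a-/- line. In both lines 539 did not overlap in the same direction, 362 lower and 177 higher, and 418 in opposite directions. Whether 539 is more than the separate counts of the lines would give was not tested, so it is no measure of a shared response to Cre.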

How the data were processed

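Total RNA of GFP+ cells was measured on 8 Affymetrix mouse 430 2.0 arrays. The authors normalised the scans by RMA with the program RMAExpress, of a version not stated, and deposited the intensity of each probe set on a linear scale, from 35.3 to 25588 units. RMA makes the intensity distributions alike, which hides a change in total RNA and compresses differences between low intensities. The number of arrays limits the precision.

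Gene names came from the platform annotation, and the brightest probe set stood for a gene in the gene lists. Of 45037 probe sets, 34945 had 1 symbol, 932 several and 9160 none, and only the first kind was named, for 18193 genes. Of 843 list entries 787 were measured.

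Log2 of the intensities was fitted by limma 3.58.1 in R 4.3.3 to 4 group means of all 8 arrays, with eBayes and 4 residual degrees of freedom, or 3 with a term for title order within the Lef1F/F line (the block). All adjusted p-values are two-sided, by Benjamini-Hochberg over 45037 probe sets, with a threshold of 0.05. SEs are from the fit without the block. The fit was tested on simulated data. Bright means over 180 units on average in each line. The text names every gene that passed without the block, the 15 bright genes with the largest difference in each direction with the block, up to 4 called members of a list or 2 with the smallest p, and Lef1, Id3, Syk, Sgk1, Rasgrp1, Cdkn1a and Mycn. Mzb1, Tcf3, Tcf12, Myc, Ccn4, Cdc25b, Kif23, some marker genes and the genes that complete a count were named after their values were seen. The members, the lists and this rule were chosen with earlier results of these data known. The alternatives are given with the closing observations.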

Additional observations from a re-analysis of the deposited data

Results flagged for a closer look

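The response to Cre was unequal in the lines by a direct test, the limma contrast without the block, at 9 probe sets of 7 genes. On the log2 scale, Lef1F/F minus E2a-/-, the differences were -2.40 and -1.82 for Lef1, -1.69 for Cym, -1.34 for 2810459M11Rik, -1.18 and -1.14 for Syk, -1.03 for Lamb1, -0.89 for Gja1 and 0.81 for Cdkn1a. Both Lef1 probe sets, Cym and Cdkn1a were over 180 units in both lines, and the others were not. The others had means of 55.4 to 163 units in the E2a-/- line. RMA compresses differences between low intensities, so an equal fall in that line could be missed for them.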

How the results depend on the processing

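Without the block 9 probe sets passed, 4 of them bright, and 4 list genes. With the Lef1F/F replicate block 86, 45 and 28 passed, and with a block in both lines 117 and 59. The counts of all and bright probe sets were 2 and 2 when the fit and adjustment covered the bright probe sets alone, 4 and 1 without probe sets that match several transcripts by suffix, 0 and 0 in a test against 1.5-fold or at a threshold of 0.01, and 20 and 9 at 0.1. A shift to a common median left 2 bright calls, and a line of 90 units gave 7. Leaving out 1 array gave 0 to 7 of all and 0 to 4 bright calls, with 0 after removing the first E2a-/- MigR1 array or either E2a-/- MigR1-Cre array, where the lone array was assumed to vary like the other groups. Alternatives chosen after seeing the data joined the block to other settings: 101 and 60 with trend and robust moderation, 28 and 28 over bright probe sets alone, 66 and 34 without the suffix classes, 75 and 41 with an offset of 50 units, 85 and 45 after repeated quantile normalization, 39 bright calls with each of the 4 group means over 180 units (4 without the block), and, without 1 E2a-/- array in turn, 68 and 37, 45 and 21, 77 and 43, and 57 and 31 (MigR1 arrays first), of which 21 to 33 were among the 45. Within the Lef1F/F line 75 passed, 345 with the block, 433 with a block in both lines, and 20 to 33 without 1 array. Within the E2a-/- line 0 passed, and 1 with either block. The unadjusted counts stand in the report.

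A sign changed only at probe sets that were not called. A Syk probe set near background was -0.0023 after the median shift and ranged from -0.0910 to 0.0973 without 1 array. Without 1 array, a background Mycn probe set ranged from -0.0365 to 0.0995, Bop1 from -0.5214 to 0.0439, Rfc3 from -0.0395 to 0.4361, Espl1 from -0.5443 to 0.0496 and a dim Rasgrp1 probe set from -0.5884 to 0.1949. The cause was not tested for any of these changes.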
